A study of Mus musculus with 4 samples.

Results

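The 10 enzymes described here make serine and proline and pass single-carbon units along the folate pathway. Phgdh, Psat1 and Psph make serine. Shmt1, Shmt2, Mthfd1, Mthfd2 and Mthfd1l move carbon units on folate, and Aldh18a1 and Pycr1 make proline. They were chosen by symbol, and all 10 had a row among the 12020 genes analysed and passed the filter on low counts. The RNA sequenced came from NKT (natural killer T) cells, lymphocytes with a receptor for lipids bound to CD1d. Per the labels, GFP-high cells were sorted from Va14 Tg.cxcr6gfp/+ mice on the C57BL/6 strain, aged 10 to 12 weeks, so every library carries the receptor transgene and 1 reporter allele at Cxcr6. In the 2 tetramer libraries the cells had been stimulated on plates coated with mCD1d-PBS57 tetramers, and in the 2 resting libraries they had not. Liver is the labelled tissue, though the protocols mention spleens as well for the sort and islets for the extraction of RNA. No culture time is given in the sources used here.

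Serine is built from a glycolytic intermediate in a linear route. Phgdh oxidises the intermediate, Psat1 transfers an amino group to it, and Psph removes the phosphate. Serine hydroxymethyltransferases then split serine into glycine and a carbon unit carried by tetrahydrofolate, Shmt1 in the cytosol and Shmt2 in mitochondria. In mitochondria Mthfd2 oxidises the unit and Mthfd1l releases it as formate, while in the cytosol the trifunctional Mthfd1 carries out the matching steps and supplies purine and thymidylate synthesis. Proline is made from glutamate by Aldh18a1 and from ornithine by Oat, and both routes end in pyrroline-5-carboxylate reductases such as the mitochondrial Pycr1 and the cytosolic Pycrl (also called Pycr3). Activated T cells in general are known to draw on mitochondrial folate metabolism as they grow.

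The libraries held 5495521 and 5398551 counts (tetramer 4 and 5) and 4168438 and 4433048 counts (resting 4 and 5), where 4 and 5 are numbers in the column names of the deposited table. Ifng, which encodes interferon gamma and served as the check of stimulation, stood at 1488 and 762 CPM in tetramer libraries 4 and 5, against 14.7 and 21.2 CPM in resting libraries 4 and 5 (CPM are counts scaled to a common library size with TMM factors). All 12 T and NKT cell markers were in the table, summing to between 3579 and 4361 CPM in the tetramer libraries and between 4007 and 4169 CPM in the resting libraries, with Il2rb and Cxcr6 the most abundant. Of the 12, 10 were not called between groups and 2 were lower after stimulation by the edgeR test described below. Cxcr6, whose reporter served for the sort, stood at 414 and 718 CPM in tetramer libraries 4 and 5, against 1617 and 1102 CPM in resting libraries 4 and 5 (log2 fold change -1.26, edgeR adjusted p = 0.0190, and 0.346 without tetramer library 4 and 0.111 without resting library 4). Klrb1c, which encodes the receptor NK1.1 and was named after its values were seen, stood at 2.86 and 13.6 CPM in tetramer libraries 4 and 5, against 114 and 174 CPM in resting libraries 4 and 5 (log2 fold change -4.13, edgeR adjusted p = 2.91e-06, and -3.39 without tetramer library 4 and -5.63 without tetramer library 5). All 6 islet hormone markers were present too, led by Ins2 and Ins1, at sums of 235 and 426 CPM in tetramer libraries 4 and 5 and 265 and 978 CPM in resting libraries 4 and 5. Hepatocyte markers in the table numbered 4 of 15, without Alb, Apoa1 or Cps1, and summed to between 35.0 and 50.7 CPM in the tetramer libraries and between 64.0 and 74.2 CPM in the resting libraries, with Cyp2e1 and Serpina1a the most abundant. No count in the table is below 1, so a marker missing from it may have lacked reads in only 1 library. Of the other lists, macrophage (2 of 10 markers, led by Csf1r), B cell (3 of 5, led by Cd79b), neutrophil (2 of 6, S100a9 and S100a8), endothelial (1 of 6, Pecam1) and erythroid (3 of 4, Hba-a1 and Hbb-b1) markers each summed to less in both tetramer libraries than in either resting library. Macrophage markers summed to between 3.27 and 6.88 CPM in the tetramer libraries and between 15.1 and 20.7 CPM in the resting libraries, B cell markers to between 8.80 and 8.90 CPM (tetramer) and between 20.1 and 28.2 CPM (resting), and neutrophil markers to between 1.84 and 3.24 CPM (tetramer) and between 18.0 and 19.5 CPM (resting). Endothelial markers summed to 10.2 and 15.8 CPM in tetramer libraries 4 and 5 and to 75.0 and 28.8 CPM in resting libraries 4 and 5, and erythroid markers to 19.2 and 45.9 CPM in tetramer libraries 4 and 5 and to 89.9 and 247 CPM in resting libraries 4 and 5. Dendritic cell markers (3 of 5, led by Xcr1 and Siglech) summed to 72.8 and 259 CPM in tetramer libraries 4 and 5 and to 261 and 263 CPM in resting libraries 4 and 5. The third dendritic cell marker with a row, Itgax, named after its values were seen, was called higher (log2 fold change 3.16, edgeR adjusted p = 0.00641). Itgax had 21 and 18 counts in tetramer libraries 4 and 5, against 3 and 1 counts in resting libraries 4 and 5. It passed the filter on low counts through the tetramer libraries. The part of these other cell types in the results below was not tested. Whether the 2 libraries of a group stem from different mice is not stated, and p-values below reflect the variation between libraries, possibly technical.

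Of the 10 enzymes 7 rose after stimulation and 0 fell, by the quasi-likelihood test of edgeR (p adjusted over all 11312 genes tested, threshold 0.05). The 7 were Phgdh, Psat1, Shmt1, Shmt2, Mthfd1, Mthfd2 and Mthfd1l, and the 3 not called were Psph, Aldh18a1 and Pycr1. Among all genes 14.3% were called higher and 12.1% lower, 26.4% in either direction. The median log2 fold change (tetramer over resting) was 1.86 over the 10 enzymes and -0.06 over all genes tested. All 5 folate enzymes and 2 of the 3 enzymes of serine synthesis were therefore among the called genes, and 0 of the 2 listed enzymes of proline synthesis were. In a bulk sample more RNA per cell and more cells of a type cannot be told apart. With library totals in place of TMM factors the median of all genes moved to -0.35 and the calls over all genes were 1193 higher and 2250 lower in place of 1620 and 1366, while the same 7 enzymes stayed called higher. Without tetramer library 4 the call was lost for Phgdh (log2 fold change 1.37, edgeR adjusted p = 0.0816) and Mthfd1 (1.43, adjusted p = 0.244), which left 5 of the 10 higher, in a fit that called 622 genes higher and 313 lower. Without tetramer library 5, 7 stayed higher while the counts over all genes were 1157 higher and 673 lower.

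**Figure D1:**
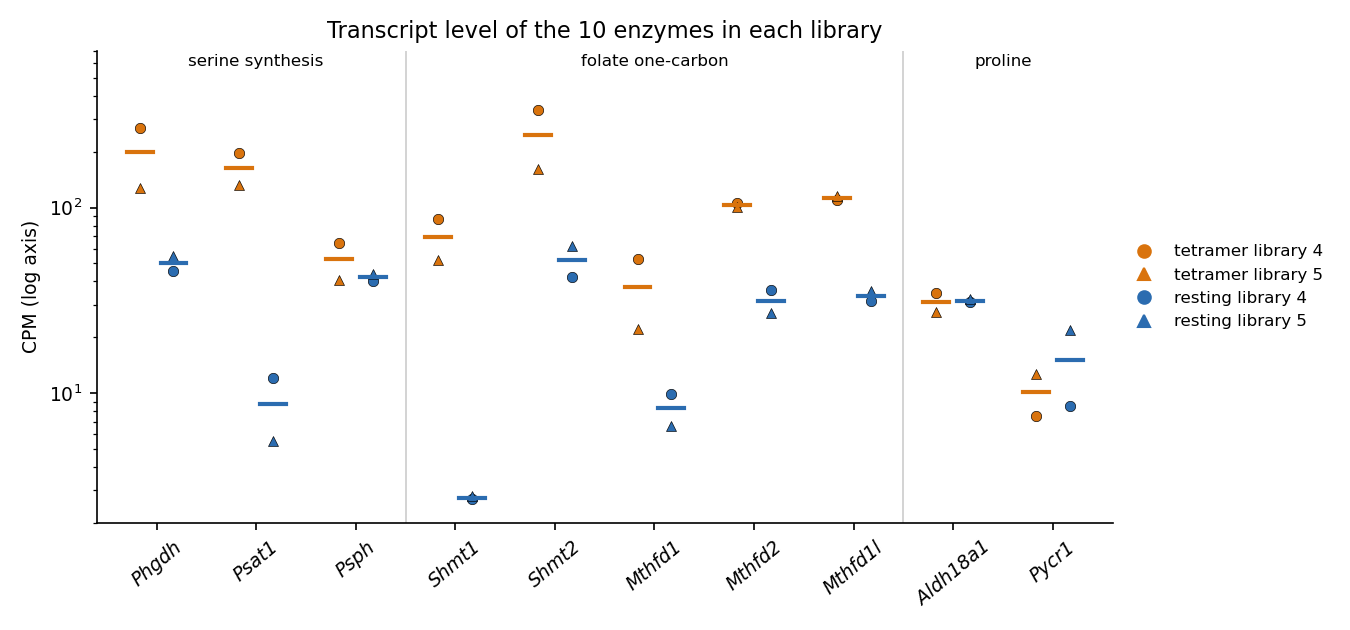
CPM of each of the 10 enzymes on a log axis in tetramer libraries (orange) and resting libraries (blue), with circles for libraries numbered 4, triangles for libraries numbered 5 and bars for the group means. For 7 enzymes both orange points lie above both blue points, while for Psph, Aldh18a1 and Pycr1 the groups overlap.

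In the 7 called enzymes both tetramer libraries lay above both resting libraries, and in 0 of the 10 did both lie below. Of all genes tested, 31.6% were placed above in this way and 33.7% below.

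Psat1, the aminotransferase of serine synthesis, had the largest fold change of the enzymes that make serine. It stood at 196 and 133 CPM in tetramer libraries 4 and 5, against 12.0 and 5.56 CPM in resting libraries 4 and 5. The groups were far apart, and the lower tetramer library was well over the higher resting one. Its log2 fold change was 4.22 ± 0.46 (SE), an 18.6-fold rise (edgeR adjusted p = 3.44e-07), and it lay between 3.80 and 4.90 when single libraries were left out, highest without resting library 4.

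Phgdh, which commits the glycolytic intermediate to serine, rose by less. It reached 269 and 128 CPM in tetramer libraries 4 and 5, against 45.8 and 54.9 CPM in resting libraries 4 and 5. Its 2 tetramer libraries differed from each other by 2.10-fold, but both lay above both resting libraries. Phgdh rose by 1.98 ± 0.40 on the log2 scale (edgeR adjusted p = 0.000712), between 1.37 and 2.42 without single libraries, and the call was lost without tetramer library 4 (adjusted p = 0.0816). A processed pseudogene of Phgdh is annotated in GENCODE M21 and has no row of its own in the table, so the share of Phgdh counts that came from it was not tested.

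Psph, the phosphatase of the last step, did not pass the test. It had 64.5 and 40.7 CPM in tetramer libraries 4 and 5, against 40.2 and 44.0 CPM in resting libraries 4 and 5. One tetramer library stood above both resting libraries and the other between them. The log2 fold change was 0.32 with a 95% interval from -0.52 to 1.16 (edgeR adjusted p = 0.594), so a rise of the size seen for Psat1 lies outside the interval and one of up to 1.16 does not. Exons of Psph overlap those of Cct6a on the opposite strand in GENCODE M21, and no source used here says whether counting used strand.

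The enzymes of serine synthesis also differed in level per kilobase of transcript. In the tetramer libraries the levels were 105 ± 52.5 CPM per kilobase for Phgdh, 62.8 ± 17.2 for Psat1 and 30.3 ± 9.71 for Psph (SD, n = 2). In the resting libraries Phgdh stood at 26.6 ± 3.41 and Psph at 24.3 ± 1.56 CPM per kilobase (SD, n = 2), a difference within their spread, and Psat1 at 3.36 ± 1.75 CPM per kilobase. Psat1 thus lay above Psph in both tetramer libraries and had the lowest level of the 3 at rest.

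Among the folate enzymes Shmt1, the cytosolic serine hydroxymethyltransferase, had a larger fold change than the other 4. It had 425 and 259 counts in tetramer libraries 4 and 5, against 13 and 13 counts in resting libraries 4 and 5, which is 87.0 and 52.4 CPM against 2.69 and 2.78 CPM. The resting libraries were nearly equal and low. Shmt1 rose by 4.66 ± 0.52 on the log2 scale, which is 25.2-fold (edgeR adjusted p = 5.22e-07), between 4.26 and 4.98 when single libraries were left out. Exons of Shmt1 overlap those of Smcr8 on the opposite strand in GENCODE M21. Smcr8 had 56 and 52 counts in tetramer libraries 4 and 5 and 76 and 32 counts in resting libraries 4 and 5, and its log2 fold change was -0.04 (edgeR adjusted p = 0.968).

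Shmt2, the mitochondrial enzyme of the same reaction, had the highest level of the 10 per kilobase of transcript in both tetramer libraries, at 146 and 70.4 CPM per kilobase in tetramer libraries 4 and 5, just above Phgdh at 142 and 67.7. By CPM it stood at 334 and 161 CPM in tetramer libraries 4 and 5, against 42.5 and 62.0 CPM in resting libraries 4 and 5. Both tetramer libraries lay above both resting libraries, with a 2.07-fold gap between the tetramer libraries themselves. For Shmt2 the log2 fold change was 2.24 ± 0.41 (edgeR adjusted p = 0.000239), between 1.64 (without tetramer library 4) and 2.68 when single libraries were left out. Its exons overlap those of Ndufa4l2 on the opposite strand in GENCODE M21, a gene with no row in the table.

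Mthfd1, the trifunctional cytosolic enzyme, rose too. It had 53.0 and 22.0 CPM in tetramer libraries 4 and 5, against 9.94 and 6.62 CPM in resting libraries 4 and 5. The tetramer libraries differed by 2.40-fold, more than for any other of the 10 enzymes, yet did not overlap the resting ones. The log2 fold change was 2.17 ± 0.52 (edgeR adjusted p = 0.00333), and without tetramer library 4 it was 1.43 with the call lost (adjusted p = 0.244). A long noncoding RNA that overlaps its exons on the opposite strand in GENCODE M21 has no row in the table.

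The mitochondrial enzymes Mthfd2 and Mthfd1l, which act one after the other, had fold changes within their standard errors of each other. Mthfd2, the dehydrogenase and cyclohydrolase, stood at 106 and 100.3 CPM in tetramer libraries 4 and 5, against 35.8 and 27.1 CPM in resting libraries 4 and 5. Mthfd1l, the formate-releasing synthetase, stood at 110 and 115 CPM in tetramer libraries 4 and 5, against 31.3 and 35.5 CPM in resting libraries 4 and 5. For both genes the tetramer libraries agreed within 1.05-fold and lay clear of the resting ones. The log2 fold changes were 1.71 ± 0.39 for Mthfd2 and 1.75 ± 0.39 for Mthfd1l (edgeR adjusted p = 0.00231 and 0.00158), and neither call was lost when any single library was left out (adjusted p up to 0.0271 and 0.0138). Mthfd2l, a mitochondrial paralogue of Mthfd2, had 6 and 10 counts in tetramer libraries 4 and 5 and 1 and 4 counts in resting libraries 4 and 5, and fell below the filter.

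**Figure D2:**
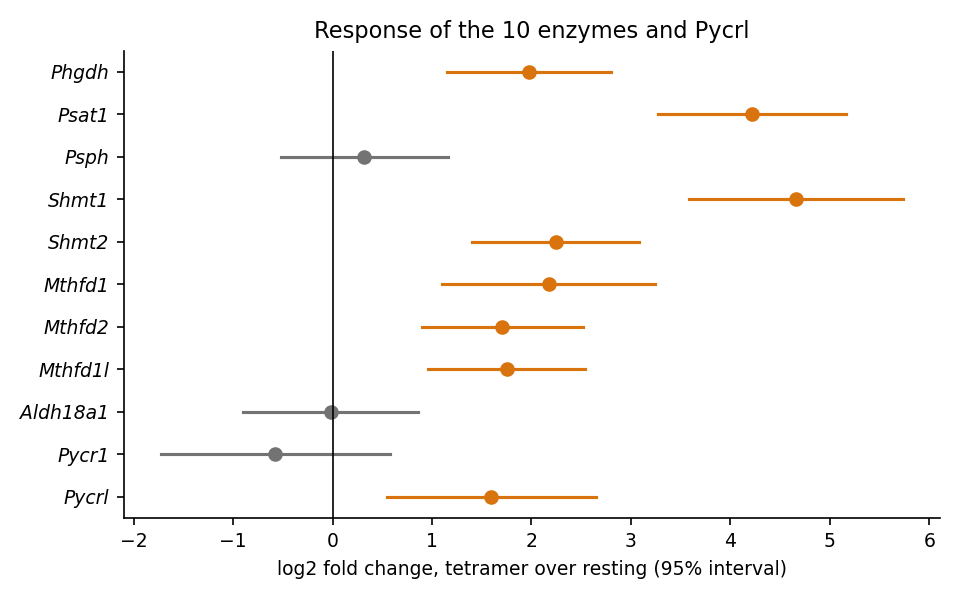
Log2 fold change (tetramer over resting, horizontal axis) with its 95% interval for the 10 enzymes and for the reductase Pycrl, in orange where called higher and in grey where not called. The intervals of Shmt1 and Psat1 start at 3.58 and 3.28, while those of Psph, Aldh18a1 and Pycr1 include 0.

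The cytosolic and mitochondrial forms were then compared inside each library, where the ratio of 2 genes' counts needs no scaling factor. Shmt2 had 3.84 and 3.08 counts for each Shmt1 count in tetramer libraries 4 and 5, against 15.8 and 22.3 in resting libraries 4 and 5. The ratio was lower in both tetramer libraries than in either resting library, by 2.40 on the log2 scale (means 1.78 ± 0.23 and 4.18 ± 0.35, SD, n = 2 each). Over the pooled level of both genes per kilobase of transcript, Shmt1 made up 17.3% and 20.7% in tetramer libraries 4 and 5, against 4.83% and 3.47% in resting libraries 4 and 5. Shmt2 therefore remained the larger part in every library. An exact two-sided permutation test over 2 libraries against 2 cannot go below p = 0.333, which is the value obtained (adjusted p = 0.833 over the 5 pairs given here), so the test could not have called this difference.

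The other folate pairs showed no such separation. Mthfd2 had 1.99 and 4.55 counts for each Mthfd1 count in tetramer libraries 4 and 5, against 3.60 and 4.10 in resting libraries 4 and 5, so the resting values lay between the tetramer ones. Mthfd1l had 2.07 and 5.21 counts for each Mthfd1 count in tetramer libraries 4 and 5, against 3.15 and 5.35 in resting libraries 4 and 5. These groups overlapped as well, with log2 differences of -0.34 for Mthfd2 over Mthfd1 and -0.31 for Mthfd1l over Mthfd1 (exact permutation p = 1 and 0.667). Mthfd2l over Mthfd1 rested on few counts and differed by -0.44 on the log2 scale (exact permutation p = 0.667). Summed per kilobase of transcript, Shmt1 and Mthfd1 came to 46.8 and 25.1 CPM per kilobase in tetramer libraries 4 and 5 against 4.01 and 3.02 in resting libraries 4 and 5, and the mitochondrial Shmt2, Mthfd2 and Mthfd1l to 226 and 150 against 44.2 and 49.7. The mitochondrial sum was the larger in all 4 libraries.

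**Figure D3:**
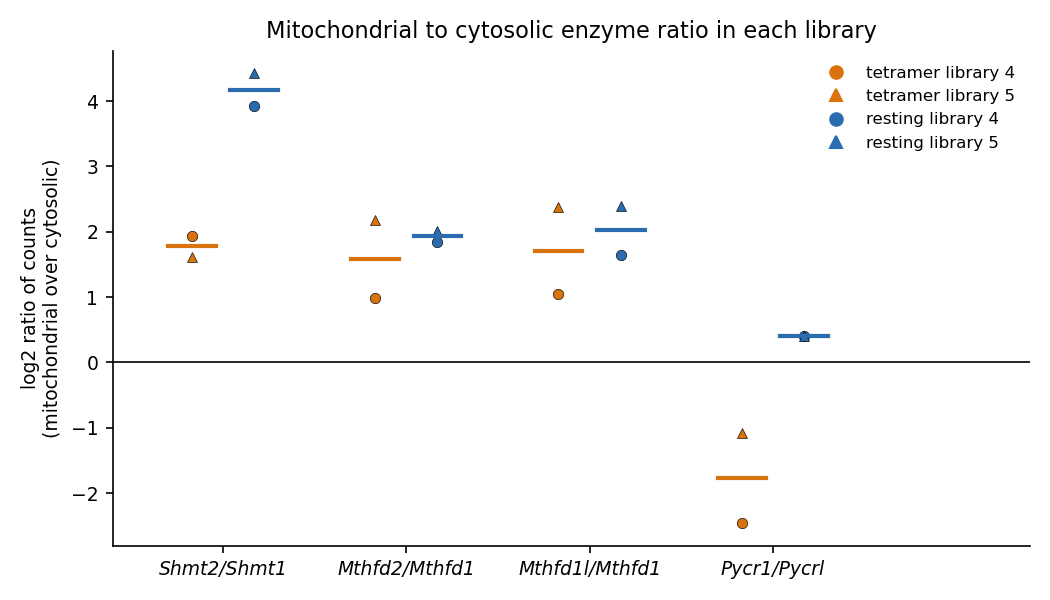
Log2 ratio of counts of the mitochondrial over the cytosolic enzyme (vertical axis) in each library for 4 pairs, with tetramer libraries in orange, resting libraries in blue, circles for libraries numbered 4, triangles for libraries numbered 5 and bars for group means. The tetramer points lie below the resting points for Shmt2/Shmt1 and Pycr1/Pycrl and overlap them for Mthfd2/Mthfd1 and Mthfd1l/Mthfd1.

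The 2 listed enzymes of proline synthesis did not pass the test. Aldh18a1, which makes the proline precursor from glutamate, had 34.6 and 27.5 CPM in tetramer libraries 4 and 5, against 30.9 and 32.1 CPM in resting libraries 4 and 5. The tetramer libraries lay on either side of the resting ones. Its log2 fold change was -0.02 with a 95% interval from -0.90 to 0.86 (edgeR adjusted p = 0.979), and its sign changed with the scaling and with single libraries left out. Pycr1, a mitochondrial reductase of the last step, had 7.57 and 12.7 CPM in tetramer libraries 4 and 5, against 8.49 and 21.8 CPM in resting libraries 4 and 5. Its resting libraries were the more spread, resting library 5 being the highest. That library also had the highest sums of islet hormone (978 CPM), erythroid (247 CPM), hepatocyte (74.2 CPM) and B cell (28.2 CPM) markers. Its sums of dendritic cell (263 CPM) and macrophage (20.7 CPM) markers were the highest as well. Endothelial and neutrophil markers went the other way, at 75.0 and 19.5 CPM in resting library 4 against 28.8 and 18.0 CPM in resting library 5. The part of such cells in the Pycr1 value was not tested. The log2 fold change was -0.57 with a 95% interval from -1.73 to 0.58 (edgeR adjusted p = 0.475), and it was 0.28 without resting library 5.

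The cytosolic reductase Pycrl did rise. It had 42.2 and 27.1 CPM in tetramer libraries 4 and 5, against 6.42 and 16.5 CPM in resting libraries 4 and 5. The tetramer libraries lay above the resting ones, and the log2 fold change was 1.60 ± 0.51 (edgeR adjusted p = 0.0222). Its log2 fold change was 2.45 without resting library 5. The call of Pycrl was lost without resting library 4 (adjusted p = 0.126), without tetramer library 4 (0.284) and against a fold of 1.5 (0.0577).

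Pycr1 had 0.180 and 0.470 counts for each Pycrl count in tetramer libraries 4 and 5, against 1.32 and 1.32 in resting libraries 4 and 5. The groups did not overlap, and the log2 difference was -2.17 (exact permutation p = 0.333, the smallest possible). Per kilobase of transcript, Pycr1 made up 7.62% and 17.8% of the summed level of these 2 reductases in tetramer libraries 4 and 5, against 37.8% and 37.8% in resting libraries 4 and 5.

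The promoters of the 10 enzymes were searched for 2 short motifs, TGATGNAA, the core of the amino acid response element bound by ATF4 with C/EBP factors, and CACGTG, the E-box bound by Myc with Max. Both strands were read in RefSeq windows of GRCm38.p6 from 250 bases before to 50 bases after the start site (all 10 enzymes matched, in 11 windows). The first motif was in 3.97% and the second in 7.15% of all 32851 windows, and the 2 motifs do not overlap in the windows found. Among the 10 enzymes the first was found in Pycr1 and the second in Aldh18a1, both among the genes not called, and neither in the windows of the 7 that rose. At shares this low any 11 windows would hold few matches, so no link between the matches and the calls is drawn. The windows of Pycr1 and Aldh18a1 are shown for these matches, in capitals. The window of Shmt1 holds neither motif and is shown because Shmt1 had the largest fold change of the 10 with all 4 libraries.
Pycr1 (chr11:120643699-120643998, minus strand): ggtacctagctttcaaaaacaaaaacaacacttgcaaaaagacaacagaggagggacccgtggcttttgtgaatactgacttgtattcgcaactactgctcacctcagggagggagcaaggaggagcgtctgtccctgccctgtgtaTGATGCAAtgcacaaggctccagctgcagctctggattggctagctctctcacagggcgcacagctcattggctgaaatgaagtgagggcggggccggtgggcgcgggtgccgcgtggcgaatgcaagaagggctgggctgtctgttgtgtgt
Aldh18a1 (chr19:40588414-40588713, minus strand): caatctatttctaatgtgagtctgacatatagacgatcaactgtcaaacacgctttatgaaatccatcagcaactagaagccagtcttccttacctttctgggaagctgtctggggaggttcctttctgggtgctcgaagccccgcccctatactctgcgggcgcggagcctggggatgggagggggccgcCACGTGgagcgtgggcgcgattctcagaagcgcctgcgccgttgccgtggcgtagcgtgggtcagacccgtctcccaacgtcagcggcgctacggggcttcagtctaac
Shmt1 (chr11:60811216-60811515, minus strand): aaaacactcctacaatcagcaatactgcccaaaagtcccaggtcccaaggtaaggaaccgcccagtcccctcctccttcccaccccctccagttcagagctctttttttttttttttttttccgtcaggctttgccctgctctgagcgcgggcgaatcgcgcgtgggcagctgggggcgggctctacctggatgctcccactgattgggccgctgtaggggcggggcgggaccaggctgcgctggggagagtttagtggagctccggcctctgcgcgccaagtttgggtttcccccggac
The match in Pycr1 starts 103 bases and that in Aldh18a1 59 bases before the start site. A match describes letters in a window, and its absence says nothing of sites with other letters or of more distant sites.

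Around these enzymes, of 9 other genes of folate handling tested, 2 rose (22.2%) and 1 fell (11.1%), against 14.3% higher and 12.1% lower among all genes, with a median log2 fold change of 1.11. The reduced folate carrier Slc19a1 reached 50.9 and 26.7 CPM in tetramer libraries 4 and 5, against 3.73 and 9.40 CPM in resting libraries 4 and 5 (log2 fold change 2.56 ± 0.54, edgeR adjusted p = 0.00106). Mthfsd, named for its synthetase-like domain, rose by 2.17 ± 0.63 on the log2 scale (edgeR adjusted p = 0.0122), and Mthfs, which returns a stored folate form to use, changed by -1.49 ± 0.51 (adjusted p = 0.0316). All 3 calls were lost without tetramer library 4, where the adjusted p by edgeR was 0.0601 for Slc19a1, 0.0702 for Mthfsd and 0.115 for Mthfs, at log2 fold changes of 2.04, 2.37 and -1.90, and the log2 fold change of Slc19a1 was 3.40 without resting library 5. The calls of Mthfsd and Mthfs were also lost without tetramer library 5 (adjusted p = 0.132 and 0.289), and that of Mthfs without resting library 5 (0.0552).

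Genes of serine and glycine transport and use were called higher in 5 (31.2%) and lower in 2 (12.5%) of 16 cases, against 14.3% and 12.1% among all genes, with a median log2 fold change of 0.94. The share called lower was near that of all genes. Sfxn1, a mitochondrial serine carrier, stood at 442 and 367 CPM in tetramer libraries 4 and 5, against 114 and 119 CPM in resting libraries 4 and 5 (log2 fold change 1.79 ± 0.37, edgeR adjusted p = 0.000833). Its relative Sfxn3 went the other way, at 40.7 and 39.6 CPM in tetramer libraries 4 and 5, against 74.2 and 106 CPM in resting libraries 4 and 5 (-1.16 ± 0.39, adjusted p = 0.0283). The neutral amino acid transporter Slc1a5 rose by 1.74 ± 0.37 (edgeR adjusted p = 0.00109). Gcsh, a carrier protein of the glycine cleavage system, had 46.9 and 45.1 CPM in tetramer libraries 4 and 5, against 12.0 and 12.0 CPM in resting libraries 4 and 5 (1.94 ± 0.46, adjusted p = 0.00276). Gcat, a mitochondrial enzyme of threonine breakdown to glycine, rose by 2.70 ± 0.73 (edgeR adjusted p = 0.00778), and Serinc3, a membrane protein named as a serine incorporator, changed by -1.85 ± 0.45 (adjusted p = 0.00349). Without tetramer library 4 the calls were lost for Gcat (log2 fold change 1.29, edgeR adjusted p = 0.531), Serinc3 (-1.30, adjusted p = 0.161) and Sfxn3 (-1.16, adjusted p = 0.212), and that of Sfxn3 also without tetramer library 5 (0.162) or resting library 5 (0.163). The log2 fold change of Gcat was 3.34 without resting library 4 and 3.41 without tetramer library 5, and that of Serinc3 was -2.69 without tetramer library 5. Gcat had 104 and 24 counts in tetramer libraries 4 and 5, against 13 and 6 counts in resting libraries 4 and 5. It passed the filter on low counts through the tetramer libraries. With at least 10 counts per library Gcat was not tested, and 4 genes of the list were called higher. Sfxn1 and Slc1a5 were named after their values were seen.

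Among genes of purine and thymidylate synthesis, which use carbon units, 3 of 7 rose (42.9%) and 1 fell (14.3%), against 14.3% higher and 12.1% lower among all genes, with a median log2 fold change of 0.74. Atic, which adds the last formyl group to the purine ring, stood at 123 and 98.5 CPM in tetramer libraries 4 and 5, against 22.2 and 18.6 CPM in resting libraries 4 and 5 (log2 fold change 2.44 ± 0.41, edgeR adjusted p = 8.11e-05). Ppat, the entry enzyme of purine synthesis, rose by 2.65 ± 0.47 (edgeR adjusted p = 0.000177), and Gart, which uses formyl folate in the same route and was named after its values were seen, averaged 90.2 ± 9.36 CPM in the tetramer libraries and 22.5 ± 2.87 CPM in the resting libraries (SD, n = 2 each, adjusted p = 0.000724). Tyms, which uses methylene folate to make thymidylate, had 107 and 62.1 CPM in tetramer libraries 4 and 5, against 271 and 661 CPM in resting libraries 4 and 5 (-2.46 ± 0.43, adjusted p = 0.000151). Its resting libraries differed from each other by more than its tetramer libraries did but lay above both, and without resting library 5 the log2 fold change was -1.65 (edgeR adjusted p = 0.00189). A pseudogene, Tyms-ps, has a row of its own, with 19 and 14 counts in tetramer libraries 4 and 5 and 23 and 59 counts in resting libraries 4 and 5, and no source used here says how reads shared by the copies were assigned.

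In the methionine cycle and salvage pathway 4 of 12 genes rose (33.3%) and 1 fell (8.33%), against 14.3% and 12.1% among all genes, with a median log2 fold change of 0.34. Of the 4, Enoph1 had 20 and 9 counts in resting libraries 4 and 5 and passed the filter on low counts through the tetramer libraries. With at least 10 counts per library Enoph1 was not tested, and 3 genes of the list were called higher. The subunits of methionine adenosyltransferase moved apart: the catalytic Mat2a, named after its values were seen, stood at 354 and 275 CPM in tetramer libraries 4 and 5, against 88.0 and 85.0 CPM in resting libraries 4 and 5 (log2 fold change 1.86 ± 0.37, edgeR adjusted p = 0.000614). The regulatory Mat2b stood at 29.7 and 24.5 CPM in tetramer libraries 4 and 5, against 227 and 81.2 CPM in resting libraries 4 and 5 (-2.51 ± 0.44, adjusted p = 0.00016, and -1.57 without resting library 4, adjusted p = 0.00722). Ahcy, which breaks down S-adenosylhomocysteine, rose by 2.08 ± 0.43 (edgeR adjusted p = 0.000798). Enoph1, of the salvage pathway, rose by 1.89 ± 0.65 (edgeR adjusted p = 0.0326), a call lost without tetramer library 4 (0.397), tetramer library 5 (0.0664) or resting library 5 (0.114), and its log2 fold change was 2.55 without resting library 4.

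Among genes of proline, ornithine and glutamate metabolism 4 of 10 rose (40%) and 0 fell, against 14.3% and 12.1% among all genes, with a median log2 fold change of 0.70. Besides Pycrl, Oat, which links ornithine to the proline precursor, had 64.7 and 37.4 CPM in tetramer libraries 4 and 5, against 18.9 and 7.27 CPM in resting libraries 4 and 5 (log2 fold change 1.96 ± 0.49, edgeR adjusted p = 0.00449, and 0.134 without tetramer library 4, while the log2 fold change was 2.82 without resting library 4). Got2, the mitochondrial aspartate aminotransferase, rose by 1.91 ± 0.39 (edgeR adjusted p = 0.000696), although a processed pseudogene of it is annotated in GENCODE M21. Without tetramer library 4, 1 gene of the list stayed higher.

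The last list was that of the ATF4 response and Myc, factors known to act on serine and folate genes in other cells. It had 3 higher (18.8%) and 1 lower (6.25%) of 16 tested, against 14.3% and 12.1% among all genes, with a median log2 fold change of 0.12. Both tetramer libraries lay above both resting libraries in 6 of the 16 and below them in 7, against 31.6% and 33.7% of all genes. Of the 3 called higher, Myc and Asns had fewer than 10 counts in each resting library and passed the filter on low counts through the tetramer libraries. With at least 10 counts per library neither was tested, and 2 genes of the list were called higher. Atf4 itself stood at 615 and 742 CPM in tetramer libraries 4 and 5, against 269 and 428 CPM in resting libraries 4 and 5. The groups did not overlap, and its log2 fold change of 0.96 ± 0.38 missed the threshold (edgeR adjusted p = 0.0581). DESeq2 (0.0464), limma-voom (0.0461) and the stricter filter (0.0493) called it. RLE factors (edgeR adjusted p = 0.0559), no filter (0.0618), a block by column number (0.101), library totals (0.160) and the test against 1.5-fold (0.185) did not. With single libraries left out the log2 fold change lay between 0.68 (without resting library 4) and 1.36 (without resting library 5). Myc was low, at 8.39 and 2.23 CPM in tetramer libraries 4 and 5, against 1.04 and 0.641 CPM in resting libraries 4 and 5 (2.62 ± 0.80, edgeR adjusted p = 0.0163, and 0.0511 by limma-voom), and its log2 fold change was 3.29 without tetramer library 5, while without tetramer library 4 it did not pass the filter on low counts. Atf3 had 53.2 and 33.2 CPM in tetramer libraries 4 and 5, against 2.07 and 10.0 CPM in resting libraries 4 and 5. It rose by 2.83 ± 0.57 (edgeR adjusted p = 0.000699), with a log2 fold change of 2.12 without resting library 4 and 4.39 without resting library 5. Asns, asparagine synthetase, had 32 and 18 counts in tetramer libraries 4 and 5, against 5 and 3 counts in resting libraries 4 and 5. It rose by 2.56 ± 0.76 (edgeR adjusted p = 0.0136), with the call of Asns lost without tetramer library 4 (0.321) or 5 (0.0624). Trib3, an inhibitor of this response, had 2.05 and 2.43 CPM in tetramer libraries 4 and 5, against 4.14 and 21.4 CPM in resting libraries 4 and 5 (-2.50 ± 0.72, edgeR adjusted p = 0.0121). Its fall rested on resting library 5, without which the log2 fold change was -0.86 (adjusted p = 0.388), and the call was also lost without tetramer library 4 (0.119) or 5 (0.0555). Without resting library 4 its log2 fold change was -3.23.

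**Figure D4:**
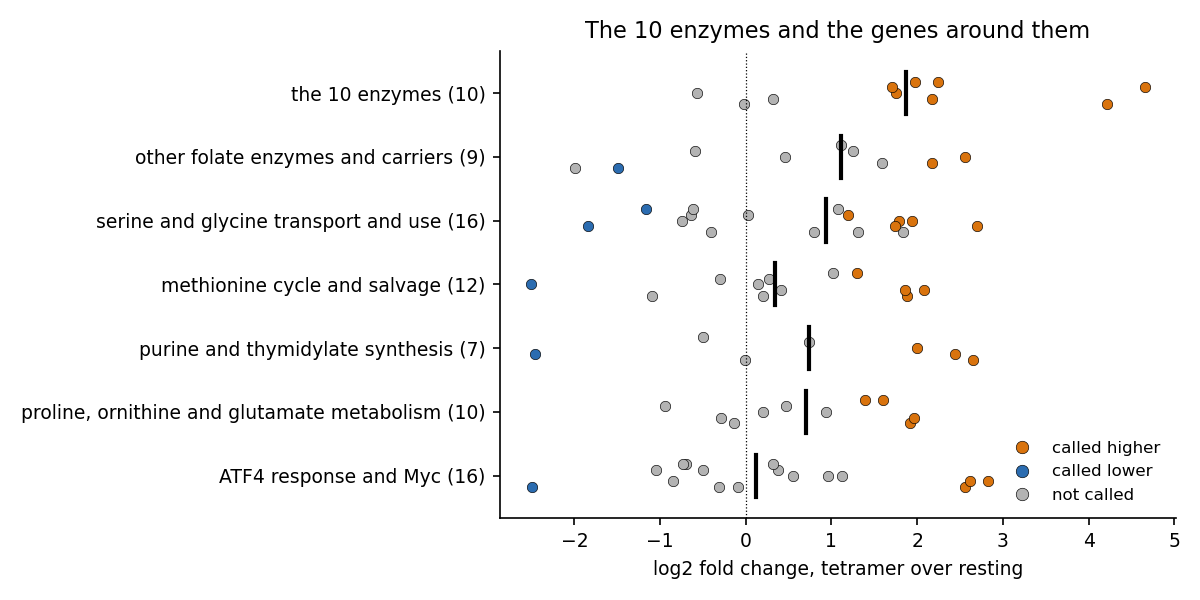
Log2 fold change (tetramer over resting, horizontal axis) of the 10 enzymes and of each tested gene of 6 surrounding lists, with the number tested in parentheses, orange for genes called higher, blue for genes called lower, grey for genes not called and a black bar at the median. The medians lie between 0.12 and 1.86, against -0.06 over all genes tested.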

How the data were processed

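Polyadenylated RNA of sorted NKT cells was reverse transcribed, and PCR of 23 cycles amplified products of 200 to 400 nt, per the labels' protocols. The authors deposited raw counts of reads for each gene symbol in 4 libraries. Bowtie2, DESeq2 and the build mm9 are named, without versions, in the submitters' processing notes. The sources used here name no counter or strand setting. Columns were matched to groups by name, their numbers (4 and 5) differing from the replicate numbers of the titles. No count in the table is below 1, and genes with a library at 0 were not analysed here. Of 12021 rows, 1 with a cell that is not a number was left out.

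Counts were tested with edgeR 4.0.16 (R 4.3.3): default expression filter, TMM scaling, quasi-likelihood F test, Benjamini-Hochberg adjustment, threshold 0.05. Common biological variation was 0.322 as a coefficient. Standard errors come from the F statistic and 95% intervals from its degrees of freedom. The fit was also run on counts simulated from its own means and dispersions, which cannot show how well that model describes these data. Transcript lengths are those of the principal coding transcript in GENCODE M21, a later build than mm9 used for lengths and names only. Ratios of counts had 0.5 added to each count for the log2 scale. Alternatives were RLE factors, library totals, no filter, at least 10 counts per library, DESeq2 1.42.0, limma-voom 3.58.1, a test against a 1.5-fold change, a block by column number, a pseudocount of 2 and leaving out each library. Some genes and the results that need them are not reported here, and lists are counted without them. The enzymes, lists and tests were chosen with earlier results of these data known. Named genes were the enzymes and their isoform pairs, up to 3 called members of each list with the largest change, members against their list's main direction, Atf4, Myc, Ifng and the 2 most abundant members of each marker list.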

Additional observations from a re-analysis of the deposited data

How the results depend on the processing

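The 7 enzymes called higher numbered 7 under every alternative except without tetramer library 4 (range 5 to 7 over single libraries left out), and 0 were called lower under any. Among the uncalled enzymes the sign turned for Psph without tetramer library 4 (range over single libraries left out -0.033 to 0.62), for Pycr1 without resting library 5 (range -1.09 to 0.28) and for Aldh18a1 with RLE factors (0.00087), the stricter filter (0.0017) and without resting library 5 or tetramer library 5 (range -0.18 to 0.14). Over all genes 2250 were lower by library totals and 785 by the test against 1.5-fold, and with single libraries left out the counts ranged from 622 to 1629 higher and from 313 to 1488 lower. For the surrounding lists, library totals gave 2 folate genes lower, 2 methionine genes higher and 2 lower, 1 proline gene lower and 3 ATF4 genes lower. The test against a fold of 1.5 gave 0 folate genes lower, 1 serine gene lower, 2 methionine genes higher and 2 proline genes higher, and limma-voom gave 0 ATF4 genes lower. With single libraries left out, folate genes ranged from 0 to 2 higher and 0 to 1 lower, serine genes from 4 to 6 higher and 0 to 2 lower, methionine genes from 2 to 3 higher and 1 to 2 lower, proline genes from 1 to 4 higher and 0 to 1 lower, and ATF4 genes from 1 to 5 higher and 0 to 2 lower. The isoform ratios of Shmt2 over Shmt1 and Pycr1 over Pycrl kept their sign throughout. Without single libraries the log2 differences of other pairs turned sign, ranging from -0.93 to 0.25 (Mthfd2 over Mthfd1), -0.97 to 0.35 (Mthfd1l over Mthfd1) and -1.54 to 0.66 (Mthfd2l over Mthfd1). The cause was not tested.

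A block by column number called 7 enzymes higher and 0 lower, and over all genes 1693 higher and 1468 lower. Deviations of same-numbered libraries had a correlation of 0.0486 across genes, and with 2 pairs the numbers were not taken to pair the libraries. Depth limits the called genes Shmt1, Gcat, Asns, Myc and Itgax at rest, which had 13 counts or fewer in each resting library. Gcat, Enoph1, Asns and Myc were not tested with at least 10 counts per library. Under that filter 4 serine genes, 3 methionine genes and 2 ATF4 genes were called higher.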
